A study of Mus musculus with 24 samples.

Results

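The 78 genes described here encode proteins of the mitochondrial ribosome, and were taken as every gene whose symbol is Mrps or Mrpl followed by a number and at most 1 letter. They are 78 of the 34866 genes listed in at least 1 of the 4 deposited tables. By symbol, 29 belong to the small subunit (Mrps) and 49 to the large subunit (Mrpl). All 78 were listed in each table and passed the filter on low values in each line, so none is missing from the counts below. In RNA-seq of total RNA, mouse tumour cells that carried a guide RNA against B2m (sgB2m) were compared with cells of the same line that carried a non-targeting guide (sgNT). B2m encodes beta-2-microglobulin, the light chain of MHC class I. The lines were MC38 (colon adenocarcinoma), LLC1 (Lewis lung carcinoma), AKR (esophageal carcinoma) and Hepa1-6 (hepatoma), and all grew in DMEM with serum. Each line and guide had 3 libraries, 24 in all. The labels do not say whether edited cells were clones or pools, or whether the 3 libraries came from separate cultures, so p-values measure the spread between these libraries only.

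The mitochondrial ribosome, or mitoribosome, translates the few mRNAs of the mitochondrial genome, which encode core subunits of the respiratory chain and ATP synthase. Its rRNAs are transcribed from mitochondrial DNA, whereas its proteins are encoded in the nucleus, made in the cytosol and imported. Some of the proteins have counterparts in bacterial ribosomes, and the others were added in the mitochondrial lineage.

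A library held between 25 and 49.7 M counted reads, and the members had between 814 and 24120 reads over the 6 libraries of a line. B2m was lower in each line, by log2 fold changes of -1.35 in Hepa1-6, -1.57 in AKR, -1.71 in LLC1 and -1.78 in MC38, and its transcripts remained in every sgB2m library. All 7 hepatocyte markers passed the filter in Hepa1-6, with mean log2 values from 4.91 to 17.56. With sgB2m, 6 of them fell and 1 rose (median log2 fold change -0.39), where 19.2% of all genes fell and 18.6% rose. The part of these markers in the change of the members was not tested. Of 6 leukocyte markers, 1 passed the filter in LLC1 and 1 in Hepa1-6, and 0 in MC38 and AKR. Defining markers were incomplete in the other lines: MC38 had no entry for the intestinal genes Cdx2, Cdh17 and Krt20, LLC1 none for the alveolar regulator Nkx2-1, and AKR none for the squamous keratin Krt5. Of the markers that were tested, some moved with sgB2m. In MC38 the squamous regulator Trp63 rose (mean normalised count 3.88 in sgNT and 59.6 in sgB2m), the keratin Krt13 fell (log2 fold change -1.50) and Afp rose (1.22). In AKR Afp (1.20), Krt13 (1.20), Cdx2 (0.57) and Krt20 (1.59) rose and Sox2 fell (-0.97), and in LLC1 the alveolar protease gene Napsa fell (-0.82). In Hepa1-6 Krt5 fell (-0.52), and Abca3, Cdh17, Krt20 and Vil1 were called with changes between -0.18 and 0.12. Their part in the change of the members was not tested either.

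The 78 genes lie on 17 chromosomes, with 11 on chromosome 11 and 8 on chromosome 17. A promoter window of 250 bases before the RefSeq start was available for 69 of them (build GRCm38.p6). It was searched on both strands for the letters of 3 motifs tied to nuclear control of mitochondrial genes: the NRF1 palindrome (GCGCA followed by its reverse complement), CCGGAAG (the ETS family) and AAGATGGCG (YY1). The ETS letters were in the windows of 18 members (26.1%), against 14.3% of the promoters of genes tested in any line and 7.83% of all promoters in the table. The shares for NRF1 were 4.35%, 1.67% and 0.877%, and those for YY1 2.9%, 1.3% and 0.71%, in the same order. Promoters of cytosolic ribosomal proteins held the ETS letters in 27.6% and the YY1 letters in 3.45%. Neither share was higher in the mitochondrial set than in this one. The NRF1 letters were in 0 of 58 cytosolic ribosomal protein genes, against 3 of 69 members. The YY1 letters were in only 2 genes of each set. Matches of different motifs overlapped in 0 cases. A match describes the letters and is not a bound site. The sites below belong to members that the results turn on, with the match in capitals and up to 10 bases on either side, written 5′ to 3′ on the strand of the gene. Mrpl36 (chr13:73330968-73330996, plus strand) and Mrps11 (chr7:78783013-78783041, plus strand) hold YY1 letters on the opposite strand. Mrpl51 (chr6:125192100-125192126, plus strand), Mrpl18 (chr17:12916315-12916341, minus strand) and Mrpl58 (chr11:115403725-115403751, plus strand) hold ETS letters. The windows follow RefSeq starts. By the GENCODE coordinates of the genes, the sites of Mrpl36, Mrpl51 and Mrpl18 lie inside the gene, after its annotated start.
Mrpl36: cgtgaccttaCGCCATCTTtcttcctggc
Mrps11: ctacgggcgcCGCCATCTTtctgtcttcc
Mrpl51: aggggctaaaCCGGAAGtatttgactg
Mrpl18: actgaaaacgCCGGAAGtagggggctg
Mrpl58: tggcggaccgCCGGAAGagtgagcacc

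Mrps6 and Mrpl20 fell in at least 2 lines and had none of these letters in their windows, and the exon-free stretches of the windows are shown for comparison. That of Mrps6 spans 184 bases with 75.5% G and C (chr16:92058086-92058269, plus strand), and that of Mrpl20 spans 250 bases with 41.6% (chr4:155802628-155802877, plus strand).
Mrps6: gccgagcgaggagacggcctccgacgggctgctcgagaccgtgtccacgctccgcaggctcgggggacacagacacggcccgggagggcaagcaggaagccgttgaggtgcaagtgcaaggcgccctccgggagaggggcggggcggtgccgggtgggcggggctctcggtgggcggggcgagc
Mrpl20: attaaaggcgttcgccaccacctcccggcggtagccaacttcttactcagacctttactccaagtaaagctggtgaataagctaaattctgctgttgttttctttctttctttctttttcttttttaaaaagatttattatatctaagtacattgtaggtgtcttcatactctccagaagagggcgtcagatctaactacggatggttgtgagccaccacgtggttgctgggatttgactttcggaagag

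Members with and without the ETS letters are compared here by their medians. In MC38 the median log2 fold change was -0.19 in the 18 with them and -0.20 in the 51 without, and in Hepa1-6 it was -0.15 and -0.12. This comparison is a description and was not tested.

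Most of the 78 mRNAs were lower with sgB2m in MC38 and Hepa1-6, fell more often than they rose in LLC1, and rose more often than they fell in AKR. A gene is called here when limma's moderated test of sgB2m minus sgNT gave a Benjamini-Hochberg adjusted p under 0.05 over all genes tested in that line. In MC38, 26 members fell and 0 rose, where 15.8% of all tested genes fell and 15.9% rose. At an unadjusted p under 0.05, 37 MC38 members were lower and 1 was higher, and limma's voom on the recovered reads called 0 higher. In Hepa1-6, 28 members fell and 1 rose, against 19.2% and 18.6% of all tested genes. In LLC1, 19 fell and 7 rose, against 21.8% and 20.7%. In AKR, 11 fell and 19 rose, against 21.9% and 21%. In either direction, 26 members were called in MC38 (31.8% of all genes), 26 in LLC1 (42.4%), 30 in AKR (42.9%) and 29 in Hepa1-6 (37.8%). The share of members called down was 33.3% in MC38 and 35.9% in Hepa1-6, above the background of each line, but 24.4% in LLC1, near its background, and 14.1% in AKR. The share called up in AKR was 24.4%, near its background of 21%, and the AKR split depended on sgB2m replicate 1, as given below.

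The shifts were small. The median log2 fold change over the 78 was -0.19 in MC38 (12.5% lower) and -0.15 in Hepa1-6 (9.71% lower). It was -0.07 in LLC1 (4.98% lower) and 0.05 in AKR (3.68% higher). The medians of all genes tested were between -0.01 and 0.01. By sign alone, 72 of 78 were below 0 in MC38, 67 in Hepa1-6, 54 in LLC1 and 32 in AKR; of all genes tested, between 48.9% and 51.3% were. The smallest change that was called had an absolute log2 value of 0.14 in LLC1, 0.15 in Hepa1-6, 0.17 in AKR and 0.23 in MC38. Members whose sgB2m and sgNT libraries did not overlap numbered 39 in MC38 (50%, against 45% of all genes), 36 in LLC1 (46.2%, against 51.8%), 38 in AKR (48.7%, against 52.5%) and 32 in Hepa1-6 (41%, against 47.6%).

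**Figure D1:**
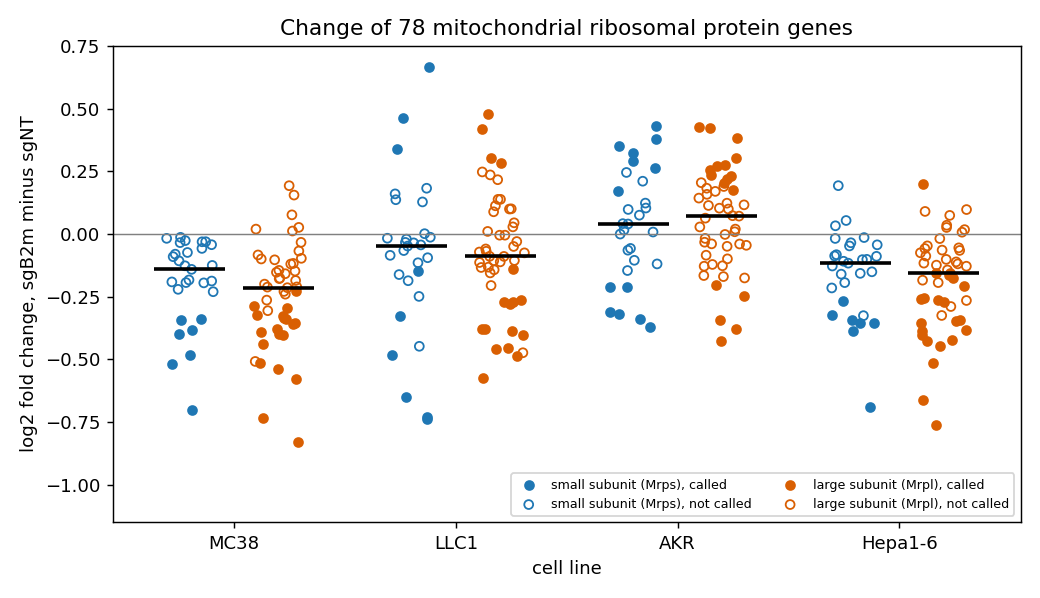
Log2 fold change (sgB2m minus sgNT, vertical axis) of each of the 78 genes in each line (horizontal axis), for the small (blue) and large (orange) subunit. Filled points passed adjusted p under 0.05 and black bars are medians; the points lie mostly below 0 in MC38 and Hepa1-6, with medians over all members of -0.19 and -0.15.

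Single libraries moved these counts. In MC38 the median member of sgNT replicate 1 was 0.11 below the mean of its group and that of sgNT replicate 3 was 0.10 above it, while the 3 sgB2m libraries lay between -0.20 and -0.17. The number of members that fell in MC38 was 40 without sgNT replicate 1. It was 17 without sgB2m replicate 1, without sgNT replicate 2 or without sgNT replicate 3, and 16 without limma's intensity trend. Calls over all genes moved too: 2615 of 16532 fell in the main fit, 2848 of 16224 without sgNT replicate 1 and 1808 of 16532 without the trend. Without sgB2m replicate 1, sgNT replicate 2 or sgNT replicate 3, 1951 of 16203, 1859 of 16246 and 2066 of 16257 genes fell. In AKR 1 library decided the sign of the median: sgB2m replicate 1 was 0.16 above the sgNT mean, and the other 2 were at -0.01 and 0.01. Without AKR sgB2m replicate 1 the median over the 78 was -0.01, with 15 members up and 13 down. Of all 15645 genes tested in that fit, 3160 were up and 3497 down, against 3332 and 3483 of 15882 in the main fit. The sgB2m libraries of LLC1 were at -0.08, -0.06 and -0.08, and those of Hepa1-6 at -0.15, -0.14 and -0.18, each below the 3 sgNT libraries of the line.

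**Figure D2:**
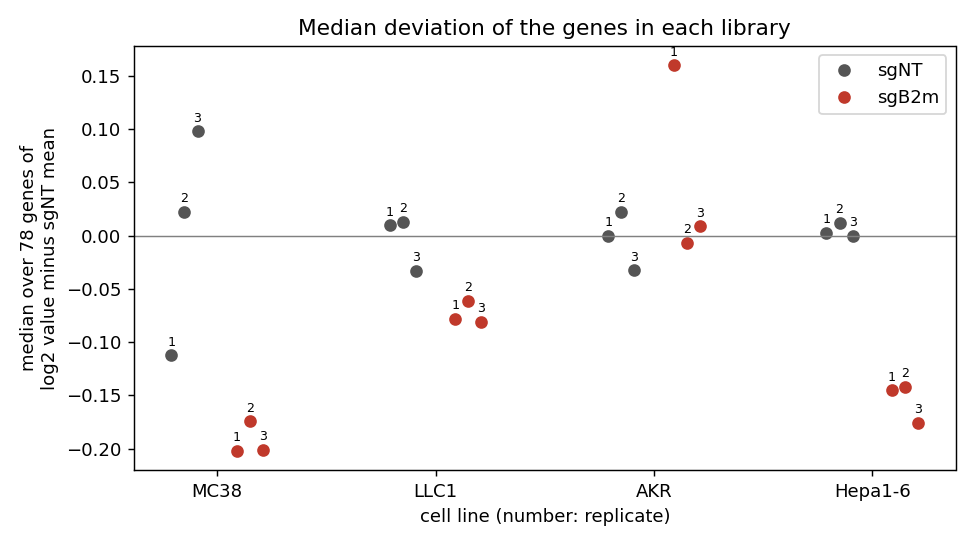
Median over the 78 genes of the log2 value minus the mean of the sgNT libraries (vertical axis), for each library (numbered by replicate) of each line. The sgB2m points lie below all sgNT points in MC38, LLC1 and Hepa1-6, and in AKR sgB2m replicate 1 stands at 0.16, apart from the other 5 libraries.

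As a share of all reads counted, the 78 genes took 0.237% ± 0.0036 (SD, n = 3) in MC38 sgB2m and 0.276% ± 0.02 in sgNT. In Hepa1-6 the shares were 0.294% ± 0.0031 and 0.321% ± 0.0021. Those in AKR were 0.298% ± 0.013 and 0.28% ± 0.0051, and those in LLC1 0.218% ± 0.0038 and 0.229% ± 0.0023. In reads per kilobase of merged exons and per M counted reads, the level in sgNT cells spanned 29.4-fold among members in Hepa1-6, 22-fold in AKR, 21.4-fold in LLC1 and 17.6-fold in MC38. The highest were Mrps21 in MC38 (49.2), Mrpl2 in LLC1 (39.7) and AKR (56.9), and Mrpl12 in Hepa1-6 (73.8). Mrpl12 forms the flexible stalk of the large subunit. Mrpl48 was lowest in MC38, AKR and Hepa1-6, at between 2.51 and 2.79, and Mrpl23 was lowest in LLC1 at 1.85. Merged exons take in every annotated exon of a gene, so these levels, spans and ranks depend on that length. It was 8152 bases for Mrpl48 and 4883 for Mrpl23, but 739 for Mrps21, 1170 for Mrpl2 and 1532 for Mrpl12.

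The shares called down were above the share of all genes in the large subunit of MC38 and Hepa1-6. In the small subunit they were nearer to it in each line, and rested on 6 or 7 of 29 members. In MC38 all 29 small subunit members were below 0, of which 7 fell, with a median of -0.14, and 43 of 49 large subunit members were, of which 19 fell, with a median of -0.21. In Hepa1-6, 7 small and 21 large subunit members fell, with medians of -0.12 and -0.16. LLC1 had 6 small subunit members down and 3 up (median -0.05), and 13 large subunit members down and 4 up (-0.09). AKR had 6 down and 7 up (0.04) in the small subunit, and 5 down and 12 up (0.07) in the large. In the small subunit the share down was 24.1% in MC38 and Hepa1-6, against 15.8% and 19.2% of all genes, and 20.7% in LLC1 and AKR, against 21.8% and 21.9%. In the large subunit it was 38.8% in MC38, 42.9% in Hepa1-6, 26.5% in LLC1 and 10.2% in AKR. In AKR the share up was 24.1% in the small and 24.5% in the large subunit, against 21% of all genes. The difference between subunits was not tested. Mrps18a and Mrps30 lie in the large subunit by structure, and Mrps36 is now known as a subunit of the oxoglutarate dehydrogenase complex. With these reassigned, the medians were -0.16 and -0.21 in MC38 and -0.12 and -0.15 in Hepa1-6. Members with a bacterial counterpart and those particular to mitochondria also had similar medians, -0.18 and -0.22 in MC38 and -0.14 and -0.14 in Hepa1-6.

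Agreement across lines was rare by the test, among members as among all genes. By sign, 16 of 78 members were below 0 in all 4 lines. That count depends on the shares below 0 in each line (72 of 78 in MC38, 67 in Hepa1-6, 54 in LLC1 and 32 in AKR). It is therefore not read as agreement. Over the 78, the log2 fold changes of 2 lines had Pearson correlations between -0.20 and 0.21. No member was down in all 4 lines by the test, and none was up in all; of the genes tested everywhere, 0.387% were down and 0.237% up in all 4. Mrps6 and Mrpl36 were called down in 3 lines, 2 of 78 where 4.37% of all genes were, and 0 members were called up in 3, where 3.53% were. The 16 members below 0 in all 4 lines (6.65% of all genes were) included Mrpl52, Mrps26 and Mrpl3, and 0 were above 0 in all, where 5.81% of genes were. A further count gave 14 of 78 that were called up in 1 line and down in another, against 33.4% of all genes. Another 15 were called in no line, against 21.2%.

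Mrps6 encodes a small subunit protein with a bacterial counterpart, and it was lower in 3 lines. In MC38 its normalised counts were 1072, 1174 and 1290 in sgNT and 712, 723 and 729 in sgB2m, a log2 fold change of -0.70 ± 0.08 (SE, limma adjusted p = 0.000189). All 3 sgB2m libraries lay below all 3 sgNT libraries. In AKR the values were 805, 769 and 776 against 689, 580 and 620 (-0.32 ± 0.08, limma adjusted p = 0.00705), and in Hepa1-6 538, 580 and 547 against 429, 379 and 466 (-0.39 ± 0.10, limma adjusted p = 0.00589), again without overlap. LLC1 went the other way without passing the test, at 589, 647 and 653 against 727, 687 and 729 (0.18 ± 0.07, limma adjusted p = 0.0592). Mrps6 shares exon sequence on the same strand with Slc5a3, an inositol transporter gene, so reads within it cannot be assigned to 1 gene. Slc5a3 changed by -0.76 in MC38 and 0.19 in LLC1, the direction of Mrps6, and by 0.59 in AKR and 0.44 in Hepa1-6, opposite to it.

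Mrpl36, whose product belongs to the large subunit, fell in MC38, LLC1 and Hepa1-6. In LLC1 the normalised counts were 389, 419 and 373 in sgNT and 314, 255 and 326 in sgB2m (-0.41 ± 0.11, limma adjusted p = 0.00912). In Hepa1-6 they were 690, 695 and 712 against 446, 618 and 514 (-0.42 ± 0.11, limma adjusted p = 0.00495), and in MC38 596, 756 and 790 against 515, 510 and 544 (-0.44 ± 0.11, limma adjusted p = 0.0153). The groups did not overlap in these 3 lines, but MC38 sgNT replicate 1 was closest to the sgB2m libraries. The MC38 call was lost without sgNT replicate 2 (limma adjusted p = 0.0623), without sgNT replicate 3 (0.0528), without sgB2m replicate 1 (0.0501) and without the intensity trend (0.057), and the Hepa1-6 call without the trend (0.0591). In AKR the groups overlapped (0.20 ± 0.12). Ndufs6, a complex I subunit gene whose exons overlap Mrpl36 on the other strand, rose by 0.45 in LLC1, where Mrpl36 fell.

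**Figure D3:**
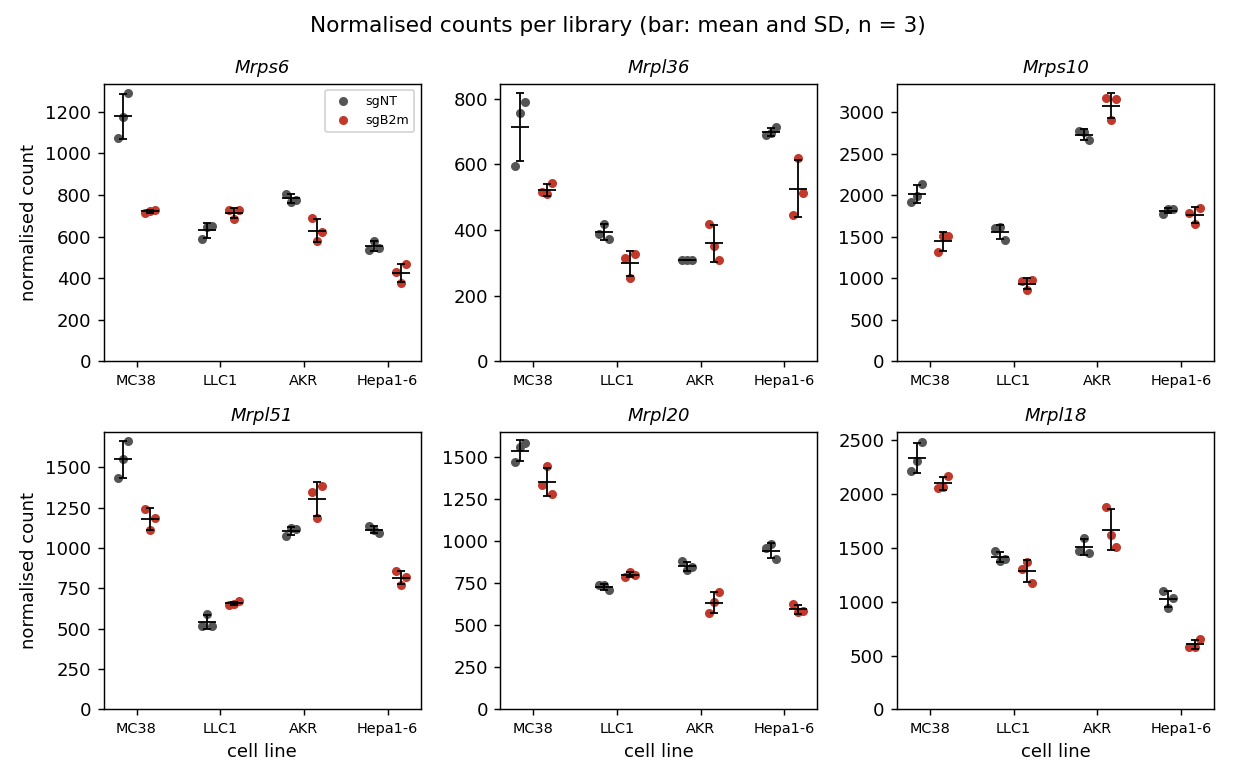
Normalised count (vertical axis, from 0) of 6 members in every library by line, with sgNT in grey and sgB2m in red; bars are the mean and SD of 3 libraries. Mrps6 is lower in MC38, AKR and Hepa1-6, and Mrpl51 is lower in MC38 and Hepa1-6 but higher in LLC1 and AKR.

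The change differed between lines for 53 of 78 members (limma F test of the line by guide interaction, adjusted p under 0.05), or 67.9%, close to the 69.8% of all genes tested in the 4 lines. The number was 46 without AKR sgB2m replicate 1 and 55 without MC38 sgNT replicate 1, 2 fits added after the data were seen. Of the pairs of lines, MC38 and AKR differed for 34 members, 32 of them lower in MC38 (47.6% of all genes differed), and AKR and Hepa1-6 for 34, 31 of them higher in AKR (41.8%). LLC1 and Hepa1-6 differed for 28 (45.2%), LLC1 and AKR for 27 (39.5%), MC38 and LLC1 for 25 (40.2%), and MC38 and Hepa1-6 for 18 (37.7%).

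Mrps10, a small subunit protein with a bacterial counterpart, had the lowest interaction p of all members (adjusted p = 2.05e-08, limma). In LLC1 its normalised counts were 1604, 1615 and 1466 in sgNT and 972, 862 and 978 in sgB2m (-0.74 ± 0.07, limma adjusted p = 5.86e-07). In MC38 they were 1917, 1993 and 2136 against 1311, 1511 and 1513 (-0.48 ± 0.08, limma adjusted p = 0.000994). The sgB2m libraries were below all sgNT libraries in both lines. In AKR it was higher, with 2776, 2756 and 2659 against 3168, 2904 and 3156 (0.17 ± 0.05, limma adjusted p = 0.0171); that call was lost without sgB2m replicate 3 (0.0718), without sgNT replicate 3 (0.066), without the trend (0.0644) and after median centring (0.0508). In Hepa1-6 the groups overlapped (-0.04 ± 0.05).

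Mrpl51, a large subunit protein, was called in all 4 lines, in 2 directions. MC38 had 1436, 1548 and 1662 in sgNT and 1244, 1111 and 1183 in sgB2m (-0.39 ± 0.08, limma adjusted p = 0.0034), and Hepa1-6 1133, 1114 and 1094 against 859, 773 and 819 (-0.45 ± 0.07, limma adjusted p = 7.65e-05). LLC1 had 517, 591 and 516 against 648, 653 and 670 (0.28 ± 0.08, limma adjusted p = 0.00997), and AKR 1076, 1123 and 1116 against 1345, 1183 and 1382 (0.23 ± 0.07, limma adjusted p = 0.0172). No line had overlapping groups, but the AKR call was lost without sgB2m replicate 3 (0.0786), without sgNT replicate 1 (0.0627) and without the trend (0.0577). The condensin gene Ncapd2 starts within 500 bases on the other strand and changed by 0.57 in LLC1 and -0.45 in Hepa1-6, and by -0.04 in AKR and -0.08 in MC38.

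Mrpl58, the peptidyl-tRNA hydrolase also known as ICT1, which frees stalled ribosomes, rose in LLC1 (0.42 ± 0.09) and fell in AKR (-0.35 ± 0.07) and MC38 (-0.30 ± 0.09). Its LLC1 counts were 299, 301 and 310 in sgNT and 416, 387 and 416 in sgB2m, and its AKR counts 972, 1036 and 967 against 742, 815 and 785. Neither pair of groups overlapped. The MC38 call was lost without sgB2m replicate 1 or 2, without sgNT replicate 2 or 3, and without the trend, at limma adjusted p between 0.0614 and 0.0944. Mrpl35 was higher in AKR, with 668, 698 and 614 in sgNT and 869, 868 and 913 in sgB2m (0.42 ± 0.07), and lower in MC38 (-0.36 ± 0.08) and Hepa1-6 (-0.21 ± 0.06).

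In MC38 the lowest fold changes among the called members were those of Mrpl53, Mrpl34, Mrps6, Mrpl38 and Mrpl52. Mrpl53 had 343, 272 and 269 in sgNT and 190, 151 and 155 in sgB2m (-0.83 ± 0.16, limma adjusted p = 0.0029), with no overlap between the groups. Its exons overlap those of Gm42688 on the same strand, so reads within the overlap cannot be assigned to either gene alone. Mrpl38, a protein of the central protuberance, had 1782, 2073 and 2362 against 1239, 1391 and 1520 (-0.58 ± 0.11, limma adjusted p = 0.00268), and it rose in AKR (0.20 ± 0.05). Mrpl34 (-0.73 ± 0.18) had 634 in sgNT replicate 3 against 405 and 384 in the other sgNT libraries, and its call was lost without the trend (limma adjusted p = 0.0627). Mrpl52 (-0.54 ± 0.17) had overlapping groups in MC38, and its call was lost without sgB2m replicate 1 or 2, without sgNT replicate 2 or 3, without a filter and without the trend, at 0.0721 to 0.125. In LLC1 Mrpl52 fell by 0.57 on the log2 scale without overlap, and lost its call without the filter (0.0609) or the trend (0.069).

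In LLC1 the members with the lowest values after Mrps10 were Mrps18b and Mrps31. Mrps18b had 1899, 1758 and 1769 in sgNT and 1104, 1095 and 1065 in sgB2m (-0.73 ± 0.05, limma adjusted p = 8.33e-08), and it also fell in MC38 (-0.38 ± 0.07). Mrps31 had 798, 860 and 821 against 544, 498 and 536 (-0.65 ± 0.07), and also fell in AKR (-0.31 ± 0.07). Mrpl57 (-0.49 ± 0.14) lost its LLC1 call without sgNT replicate 2 (limma adjusted p = 0.076). The highest was Mrps36, with 233, 252 and 209 against 377, 343 and 380 (0.67 ± 0.11, limma adjusted p = 0.000201), the member whose product is not a mitoribosomal protein. It was followed by Mrpl14 (0.48 ± 0.09), Mrps21 (0.46 ± 0.08), Mrpl58 and Mrps16 (0.34 ± 0.11), whose products are large, small, large and small subunit proteins. Mrps16 lost its call without sgB2m replicate 3 (0.0627) or sgNT replicate 3 (0.0884).

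In AKR Mrps34, a small subunit protein, was highest, with 1383, 1491 and 1351 in sgNT and 2196, 1730 and 1799 in sgB2m (0.43 ± 0.08, limma adjusted p = 0.00191), sgB2m replicate 1 being the highest. It was lower in Hepa1-6 (-0.32 ± 0.07). Exons of Mrps34 overlap those of Nme3 on the same strand, with the same limit on the assignment of reads as for Mrpl53. Mrpl41 (0.42 ± 0.09), Mrpl14 (0.38 ± 0.08) and Mrps16 (0.38 ± 0.08) also rose, the last 2 as in LLC1. The lowest were Mrpl20 (-0.43 ± 0.08), Mrpl27 (-0.38 ± 0.09), Mrps14 (-0.37 ± 0.08), Mrpl58 and Mrps26 (-0.34 ± 0.07). Mrps26 also fell in LLC1 (-0.33 ± 0.11), a call lost without the filter, without the trend and without sgB2m replicate 1 or 2 or sgNT replicate 2, at limma adjusted p between 0.0732 and 0.103.

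In Hepa1-6 Mrpl18, a large subunit protein with a bacterial counterpart, was the lowest, with 1097, 945 and 1031 in sgNT and 577, 578 and 655 in sgB2m (-0.76 ± 0.08, limma adjusted p = 2.56e-06). No sgB2m library reached the sgNT range. Its exons overlap those of the chaperonin gene Tcp1 on the other strand, which changed by -0.11 there. Mrps11 had 570, 552 and 586 against 356, 327 and 376 (-0.69 ± 0.10, limma adjusted p = 3.56e-05), and the gene it overlaps head to head, Mrpl46, also fell (-0.43). Mrpl20 had 959, 982 and 892 against 628, 581 and 583 (-0.66 ± 0.08), as in AKR. Mrpl47 (-0.51 ± 0.08) fell together with the genes whose exons it overlaps on the other strand, Actl6a (-0.36) and Ndufb5 (-0.24). Mrpl45, which links the ribosome to the inner membrane, was the 1 member called up, with 1678, 1712 and 1856 against 2049, 1987 and 1984 (0.20 ± 0.05, limma adjusted p = 0.0074), and it fell in MC38 (-0.36 ± 0.07). Without Hepa1-6 sgNT replicate 3, 2 members were called up.

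**Figure D4:**
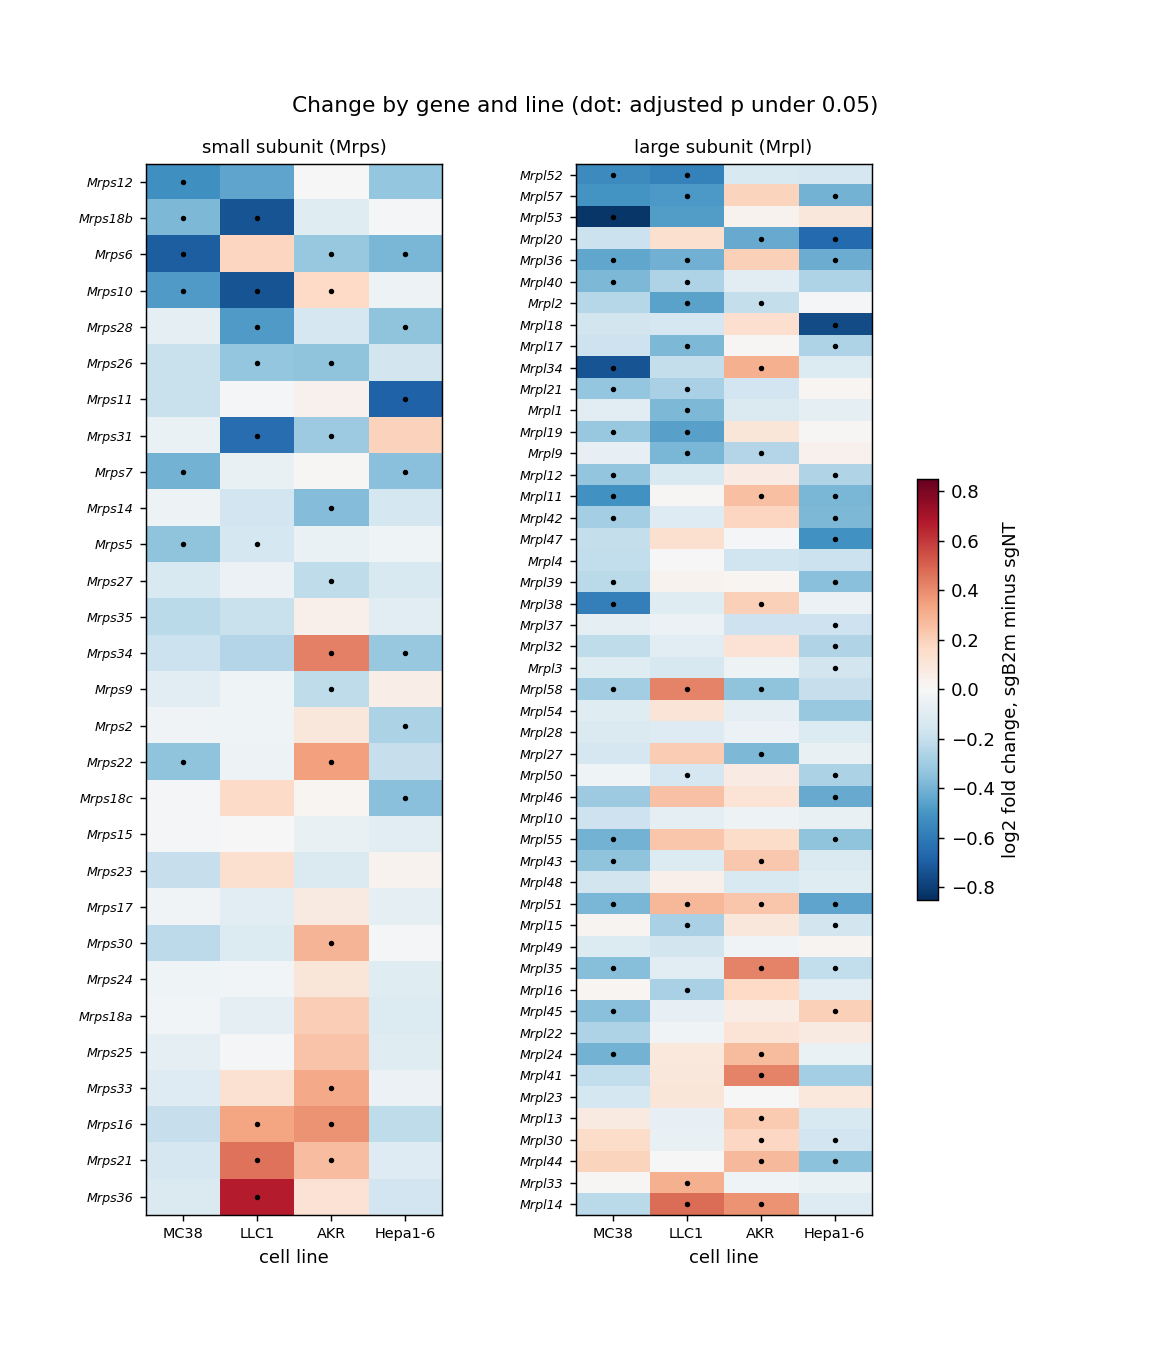
Log2 fold change (colour, red higher and blue lower in sgB2m) of each small (left) and large (right) subunit gene in the 4 lines, ordered by the mean over lines; dots mark adjusted p under 0.05. The columns of MC38 and Hepa1-6 are mostly blue with 26 and 28 genes down, while the AKR column holds 19 genes up and 11 down.

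The 3 members named for their unusual naming were not alike. Mrps18a passed in no line (0.21 ± 0.08 in AKR, limma adjusted p = 0.0506), Mrps30 rose in AKR (0.29 ± 0.07), and Mrps36 rose in LLC1. For AKR, Mrps18a passed under 6 other settings, at 0.0231 to 0.0471.

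The rule leaves out mitoribosomal proteins with other symbols. Of Dap3, Ptcd3, Chchd1, Aurkaip1 and Gadd45gip1, 4 of 5 fell in MC38, where 15.8% of all genes did, led by Chchd1 (-0.51) and Gadd45gip1 (-0.50). In Hepa1-6, 0 of 5 were called, where 37.8% of all genes were. At an unadjusted p under 0.05, limma also placed 0 of these 5 in either direction in Hepa1-6. In LLC1, Ptcd3 (-0.43) was the 1 called, where 42.4% of all genes were. In AKR Chchd1 rose (0.23) and Ptcd3 fell (-0.16), where 21% of all genes rose and 21.9% fell.

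Of 80 cytosolic ribosomal protein genes, 47 rose (58.75%, against 18.6% of all genes) and 2 fell (2.5%, against 19.2%) in Hepa1-6, with a median of 0.09. The mitochondrial ones had 1 up and 28 down there. In AKR 14 of the 80 rose and 0 fell, or 17.5% and 0%, against 21% and 21.9% of all genes. By sign, 73 of the 80 were above 0 there and 7 below (median 0.09). Cytosolic ribosomal protein genes with numbered Rpl or Rps symbols took 5.026% of reads in AKR sgB2m replicate 1, and 4.385% and 4.531% in replicates 2 and 3. In LLC1 10 of the 80 rose and 30 fell (median -0.05), or 12.5% and 37.5%, against 20.7% and 21.8% of all genes. In MC38 6 rose and 12 fell (-0.06), or 7.5% and 15%, against 15.9% and 15.8%. Of 15 mRNAs and rRNAs of the mitochondrial genome, 15 fell in Hepa1-6, where 19.2% of all genes did, with a median of -0.44. The lowest were the small subunit rRNA mt-Rnr1 (-1.01) and the complex I mRNA mt-Nd1 (-0.87). In MC38 5 rose and 2 fell, in LLC1 6 and 4, and in AKR 4 and 2. The shares up were 33.3%, 40% and 26.7%, against 15.9%, 20.7% and 21% of all genes. Those down were 13.3%, 26.7% and 13.3%, against 15.8%, 21.8% and 21.9%.

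Of 16 translation factor genes, 4 fell and 1 rose in Hepa1-6, 3 and 2 in AKR, 4 and 2 in LLC1, and 1 and 0 in MC38, where limma placed 1 higher at an unadjusted p under 0.05. The share down was 25% in Hepa1-6 (19.2% of all genes), 18.8% in AKR (21.9%), 25% in LLC1 (21.8%) and 6.25% in MC38 (15.8%). Lrpprc, which stabilises mitochondrial mRNAs, fell in LLC1 (-0.49), AKR (-0.80) and Hepa1-6 (-0.50). Tufm, the elongation factor that brings aminoacyl-tRNA, rose in LLC1 (0.52) and AKR (0.48) and fell in Hepa1-6 (-0.23). Assembly and rRNA modification factors had 6 of 25 down and 1 up in MC38, 8 and 3 in LLC1, 7 and 4 of 24 in AKR, and 3 and 3 of 24 in Hepa1-6. In that order, the shares down were 24%, 32%, 29.2% and 12.5%, against 15.8%, 21.8%, 21.9% and 19.2% of all genes. The GTPase gene Gtpbp10 was lowest in MC38 (-0.99). Of 20 mitochondrial aminoacyl-tRNA synthetase and amidotransferase genes, 4 fell and 2 rose in MC38, 7 and 2 in LLC1, 8 and 1 in AKR, and 6 and 2 in Hepa1-6. Their shares down were 20%, 35%, 40% and 30%, against 15.8%, 21.8%, 21.9% and 19.2% of all genes. Lars2 was lowest, at -1.30 in MC38. Among 10 quality control genes, 6 fell and 1 rose in Hepa1-6, 5 and 2 in AKR, 7 and 2 in LLC1, and 4 and 2 in MC38. The share of these 10 that fell was 40% in MC38, 50% in AKR, 60% in Hepa1-6 and 70% in LLC1. Of all genes, 15.8%, 21.9%, 19.2% and 21.8% fell, in the same order.

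Of 9 nuclear regulators of mitochondrial genes, 1 rose in MC38, 4 fell in LLC1 and 6 fell in AKR. In Hepa1-6, 4 rose and 3 fell. The share up was 11.1% in MC38 (15.9% of all genes) and 44.4% in Hepa1-6 (18.6%). The share down was 44.4% in LLC1 (21.8%), 66.7% in AKR (21.9%) and 33.3% in Hepa1-6 (19.2%). Myc fell in LLC1 (-1.24) and AKR (-1.16) and rose in Hepa1-6 (1.10), and changed by 0.02 in MC38. The coactivator gene Ppargc1a rose by 2.79 in MC38. Nrf1 fell in AKR (-0.71) and Hepa1-6 (-0.23), the subunit Gabpa of the ETS factor GABP fell in LLC1 (-0.19) and AKR (-0.21), and Yy1 in AKR (-0.21) and Hepa1-6 (-0.17). Among 7 mitochondrial transcription genes, Polrmt fell in MC38 (-0.52) and LLC1 (-0.41), and Tfam in LLC1 (-0.31) and AKR (-0.42).

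**Figure D5:**
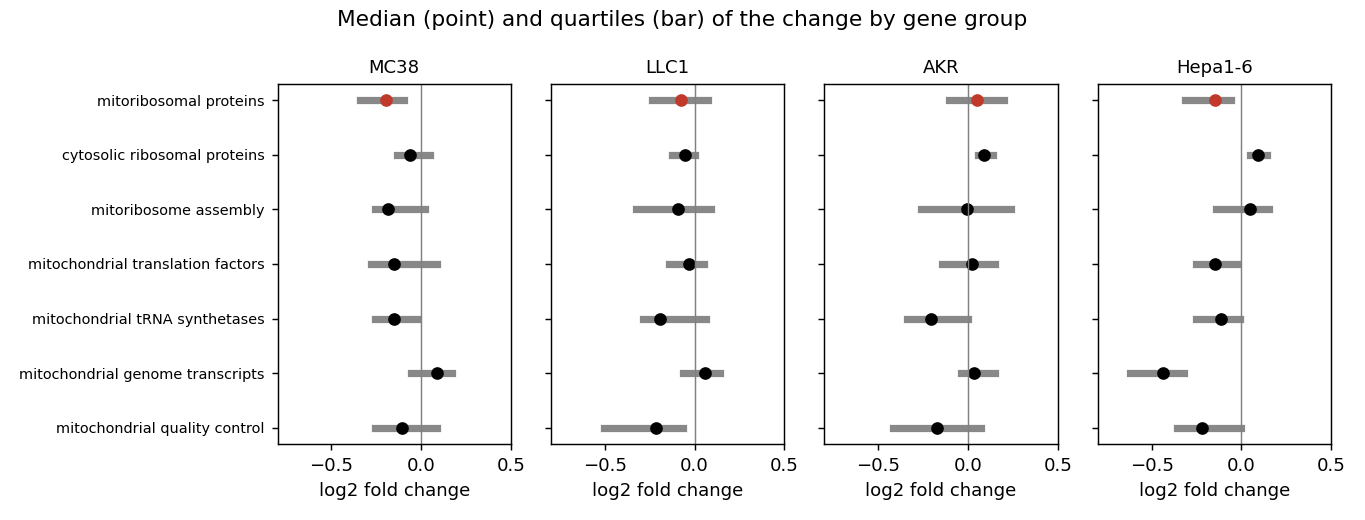
Median (point) and quartiles (bar) of the log2 fold change, sgB2m minus sgNT, for the 78 mitoribosomal genes (red) and 6 other gene groups (black) in each line. In Hepa1-6 the mitoribosomal median is -0.15 and that of mitochondrial genome transcripts -0.44, while that of cytosolic ribosomal proteins is 0.09.

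Chromosomal position and gene length were set beside these results. Taking away the median change of each chromosome left 72 members below 0 in MC38, 66 in Hepa1-6, 52 in LLC1 and 34 in AKR. In MC38, 3 of the 6 members above 0 are among the 5 on chromosome 1, where the median of all 1013 tested genes was 0.23. The part of position in the members' change was not tested. Merged exon lengths of members ran from 607 to 8631 bases with a median of 2394, and between 31 and 36 of the 78, by line, were in the quartile of tested genes with the shortest merged exons. The median change of that quartile was -0.05 in MC38, -0.06 in Hepa1-6, 0.06 in LLC1 and 0.08 in AKR, and the part of length in the members' change was not tested. Exons of 28 members overlap a gene on the other strand and those of 8 a gene on the same strand, and the sources used here do not give whether reads were counted by strand.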

How the data were processed

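The libraries were strand-specific and paired-end, per the labels' protocols. The submitters' processing notes name STAR, DESeq2 and FastQC 0.11.5, and the build mm10; the counter, its annotation and its strand setting are not given in the sources used here. Each line has 1 table, whose values the authors deposited as normalised counts on a log2 scale. Raised to linear values and less a pseudocount of 1, they were whole multiples of 1 step per library within 0.05 reads for 100% of values. Levels of different lines come from separate normalisations.

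A gene was tested if at least 3 of the 6 libraries of a line reached a log2 value of 3.5, with limma 3.58.1 in R 4.3.3 (two-sided moderated test with intensity trend, no covariates), adjusted over all genes of the line. The interaction was fitted over 12674 genes and 24 libraries. Normalised counts in the text are 2 to the deposited value, minus 1. Coordinates of genes come from GENCODE vM21 and promoters from RefSeq. The script was tested on simulated data. Alternatives were another pseudocount (8), no filter or a filter at 5, no trend, voom, quantile normalisation, median centring, a replicate block and leaving out each library. In the planned interaction fits, that library was left out of every line at once. Replicate numbers do not pair the libraries.

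The members and gene lists were chosen with earlier results of these data known. Named members were the 5 highest and 5 lowest called in each line, those called alike in at least 3 lines, the 5 with the lowest interaction p, and Mrps18a, Mrps30 and Mrps36. Other genes were named from the lists or as overlapping neighbours after their values were seen. Pseudogenes such as Mrpl48-ps, with 42 to 1090 reads over 6 libraries, were left out.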

Additional observations from a re-analysis of the deposited data

Results flagged for a closer look

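Each result below was listed because the change with sgB2m differed between the 4 lines, by limma's F test of the line by guide interaction with Benjamini-Hochberg adjustment over 12674 genes. In all, 53 of 78 members passed, or 67.9%, against 69.8% of all genes tested in the 4 lines, so the count is not particular to the members. Values follow for the members that passed among those chosen by the naming rule; the other members that passed are not listed. B2m itself differed in the size of its fall (adjusted p = 1.13e-05). Adjusted interaction p values were 2.05e-08 for Mrps10, 2.13e-07 for Mrpl51, 4.67e-07 for Mrpl35, 1.12e-06 for Mrpl20, 1.54e-06 for Mrpl18, 2.06e-06 for Mrps18b, 6.07e-06 for Mrps6, 6.19e-06 for Mrps31, 6.91e-06 for Mrpl58 and 9.12e-06 for Mrpl14. They were 1.31e-05 for Mrpl45, 4.1e-05 for Mrpl38, 0.000768 for Mrps21, 0.000897 for Mrps36 and 0.000924 for Mrpl47. Further values were 0.00171 for Mrps11, 0.00182 for Mrps16, 0.00268 for Mrpl41, 0.00514 for Mrpl36, 0.00595 for Mrps34, 0.00642 for Mrps30, 0.0128 for Mrpl34, 0.0217 for Mrpl27, 0.0294 for Mrps14, 0.0317 for Mrpl57 and 0.0477 for Mrpl53. With 3 libraries per group, no formal outlier test was run.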

How the results depend on the processing

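The count of members down in MC38 was 16 without the intensity trend and from 17 to 40 when 1 library was left out. Of all genes in MC38, 1808 fell without the trend and 1859 to 2848 when 1 library was left out, against 2615 in the main fit. The count of members up in Hepa1-6 was 1 to 2 when 1 library was left out. The other counts stayed within 1.5 times under the settings run: leaving out 1 library gave 13 to 22 down and 6 to 8 up in LLC1, 10 to 13 down and 13 to 21 up in AKR, and 21 to 29 down in Hepa1-6, and 44 to 55 members for the interaction. The median over the members changed sign in AKR, to -0.01 without sgB2m replicate 1.

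Same-numbered libraries did not deviate together, with correlations between -0.03 and 0.05, so the numbers are not read as pairs. With the replicate number as a block, 0 members rose and 27 fell in MC38, 7 rose and 16 fell in LLC1, 20 rose and 11 fell in AKR, and 1 rose and 28 fell in Hepa1-6, with 48 for the interaction. The best match of a library was its own number for 1 of 3 in MC38, 3 of 3 in LLC1, 1 of 3 in AKR and 2 of 3 in Hepa1-6. Median centring changed the split of all genes to 2864 up and 3922 down in AKR and to 2450 up and 3228 down in Hepa1-6. The smallest change of a member that was called had an absolute log2 value of 0.14 to 0.23, depending on the line; the part of depth in this was not tested. Fold changes rest on log2(value + 1) and understate those of low genes.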
